A study of Rattus norvegicus with 10 samples.

Results

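Gadd45a, Gadd45b, Tp53inp1 and Bax are stress and cell death genes, and each was measured by 1 probe. These 4 probes, of 26962 probes on the array besides controls, were found by the gene symbols of the platform annotation, with Tp53inp1 listed there under its older symbol Trp53inp1. The genes were chosen by their log2 ratios in the comparison reported here, as stress and apoptosis genes that earlier results of the same data gave as higher in Nkx6.1 samples. They are 4 of the 12762 gene symbols on the array and 4 of the 9974 genes with enough values to be tested. The comparison between the 2 groups therefore describes these 4 genes and does not test them.

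GADD45 proteins are small acidic nuclear proteins that are induced by DNA damage and other stresses. They bind the replication clamp PCNA, the mitotic kinase Cdk1 and the kinase MTK1 (Map3k4), which activates p38 and JNK. Gadd45a is a classical p53 target, while Gadd45b is best known as an early target of NF-kB and TGF-beta signalling. Tp53inp1 is a p53-induced protein that promotes cell death and binds autophagy proteins of the LC3 family, and Bax is the BCL-2 family protein that permeabilises the outer mitochondrial membrane in apoptosis.

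RNA was measured in isolated islets of male Sprague-Dawley rats, the hormone-secreting cell clusters of the pancreas. One group received an adenovirus (AdCMV-Nkx6.1) carrying the hamster form of Nkx6.1, a beta cell transcription factor of the homeodomain class, and the control group received an adenovirus (AdCMV-βGAL) carrying the bacterial enzyme beta-galactosidase, called bGAL. There were 5 samples a group, labelled as biological replicates, and the labels state no pairing between the groups. All 10 were given virus (5000000000 particles per ml) over 18 h, then kept 60 h more at 8 mM glucose. The CMV promoter in the viruses' names is active in many cell types, so expression is not limited to beta cells by the promoter, and each sample was a pool of about 200 islets. No islets without virus were analysed here.

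Each value is the log2 ratio of islet RNA (Cy5) to a common rat reference RNA (Cy3), centred on the probe's own median over the 10 samples, so that 0 is the middle sample of each gene and no level can be compared between genes. The direction of the ratio is not stated. Islet over reference was assumed, as the likely one: among probes with a repeated value, 17 of 18 neuroendocrine and secretory probes had a mean above that value in the arrays with few missing values, against 1 of 16 DNA replication and mitosis probes. All signs below rest on it. The number of arrays limits the precision.

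The arrays fell into 2 sets that were largely aligned with the groups. In array set 1 (Nkx6.1 replicate 1 and bGAL replicates 1, 2, 3 and 5) between 27.2% and 32.5% of probes had no value, and in array set 2 (Nkx6.1 replicates 2 to 5 and bGAL replicate 4) between 0.815% and 9.12% had none. The values of Nkx6.1 replicate 2 were spread most, their interquartile range being 1.09, against 0.35 to 0.58 in the other arrays. All 4 probes had a value in every sample, and none repeated a value in 3 or more samples, the mark of a floored value in this table. Of the islet markers, 6 of 8 for beta cells and 7 of 7 for other endocrine cells could be tested, but centring hides whether they are abundant, so the tissue label could not be checked by level. The mean of the 6 beta cell markers lay between -0.35 and 1.36 in Nkx6.1 samples and between -0.23 and 0.38 in bGAL samples.

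The promoters of the Gadd45 genes are shown first, because the elements found there differ between the family members. Each line is 300 bases of the coding strand, from 250 bases before the gene's start to 50 after, from RefSeq on build GRCr8. Capitals mark the CCAAT box, the octamer ATTTGCAT and the p53 half-site.
Gadd45a, chr4:97486750-97487049, minus strand: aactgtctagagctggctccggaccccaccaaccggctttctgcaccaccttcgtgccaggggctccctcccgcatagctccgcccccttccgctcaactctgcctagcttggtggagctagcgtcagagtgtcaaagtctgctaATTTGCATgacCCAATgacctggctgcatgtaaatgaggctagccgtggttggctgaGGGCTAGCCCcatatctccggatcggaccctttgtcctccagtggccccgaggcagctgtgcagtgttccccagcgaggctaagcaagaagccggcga
Gadd45b, chr7:9430669-9430968, minus strand: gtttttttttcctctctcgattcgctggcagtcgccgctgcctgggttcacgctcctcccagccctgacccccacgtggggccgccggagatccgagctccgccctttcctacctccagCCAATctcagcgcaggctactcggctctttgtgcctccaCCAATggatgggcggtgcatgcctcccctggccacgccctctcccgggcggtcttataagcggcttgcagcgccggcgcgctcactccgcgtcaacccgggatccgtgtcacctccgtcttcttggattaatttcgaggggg
Gadd45g, chr17:13530302-13530601, minus strand: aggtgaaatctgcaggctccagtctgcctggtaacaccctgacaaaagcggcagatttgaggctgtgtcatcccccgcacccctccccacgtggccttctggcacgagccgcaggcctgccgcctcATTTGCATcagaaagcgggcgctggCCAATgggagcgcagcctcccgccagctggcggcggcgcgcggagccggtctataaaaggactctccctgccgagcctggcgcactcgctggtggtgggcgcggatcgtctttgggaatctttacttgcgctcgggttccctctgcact
The Gadd45a promoter held 1 octamer, at -105 to -98 from the start, and 1 CCAAT box just downstream of it. It also held the only p53 half-site among the 3 promoters, at -48 to -39. The Gadd45b promoter held 2 CCAAT boxes and neither of the other elements, and the Gadd45g promoter held 1 octamer and 1 CCAAT box. Over 33469 rat promoters of the same length, searched on both strands, 37.5% held CCAAT, 1.78% held ATTTGCAT and 7.98% held a p53 half-site. For NF-kB only 2 strict forms of the motif were searched, and the first includes the second. Both fix a run of 3 T bases, and looser forms that allow other bases there were not searched. Neither form was found in the 3 windows, nor was the AP-1 motif TGANTCA, the CRE motif TGACGTCA or the homeodomain core TAATTA. The motifs not found were in 1.53%, 0.111%, 7.33%, 1.83% and 5.36% of all promoters, in the order named. A match describes these letters and does not show that a factor binds.

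Gadd45a and Gadd45b were both higher in islets with the Nkx6.1 virus. Gadd45a stood at 0.42, 0.71, 0.98, 0.009 and 0.44 in Nkx6.1 replicates 1 to 5, against -0.009, -0.34, -1.23, -0.34 and -0.80 in bGAL replicates 1 to 5. The groups did not overlap, but only just: Nkx6.1 replicate 4 and bGAL replicate 1, the samples that meet in the middle, were 0.018 apart. The means were 0.51 ± 0.36 with Nkx6.1 and -0.55 ± 0.48 with bGAL (SD, n = 5 each), a difference of 1.06 ± 0.27 on the log2 scale (limma estimate ± SE), or 2.08-fold. The arrays of set 1 alone gave 1.02 and those of set 2 alone 0.88.

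Gadd45b had the largest difference of the 4 genes and the widest scatter. It stood at -0.14, 0.14, 1.31, 1.45 and 0.94 in Nkx6.1 replicates 1 to 5, against -2.99, -1.13, -2.0, 0.29 and -0.17 in bGAL replicates 1 to 5. The groups overlapped: bGAL replicate 4 lay above Nkx6.1 replicates 1 and 2, and the bGAL samples spread over 3.28 log2 units against 1.59 for the Nkx6.1 samples. The means were 0.74 ± 0.71 with Nkx6.1 and -1.20 ± 1.34 with bGAL (SD, n = 5 each), a difference of 1.94 ± 0.62 (limma estimate ± SE), or 3.84-fold. This difference moved most with the array set. Array set 1 alone gave 1.43, array set 2 alone, where bGAL has 1 sample, gave 0.67, and it was 1.05 ± 0.65 with the set as a term in the fit.

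The third family member, Gadd45g, did not help choose the set and was tested. It stood at -0.053, 0.36, 0.13, 0.18 and -0.1 in Nkx6.1 replicates 1 to 5, against -0.85, -0.35, -0.77, 0.053 and 0.42 in bGAL replicates 1 to 5. The highest sample of all was bGAL replicate 5, and the groups overlapped. The difference was 0.40 ± 0.26 (limma estimate ± SE, adjusted p = 0.575), and 0.33 and 0.089 within array sets 1 and 2. Whether Gadd45g differed from its 2 relatives in response was not tested.

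**Figure D1:**
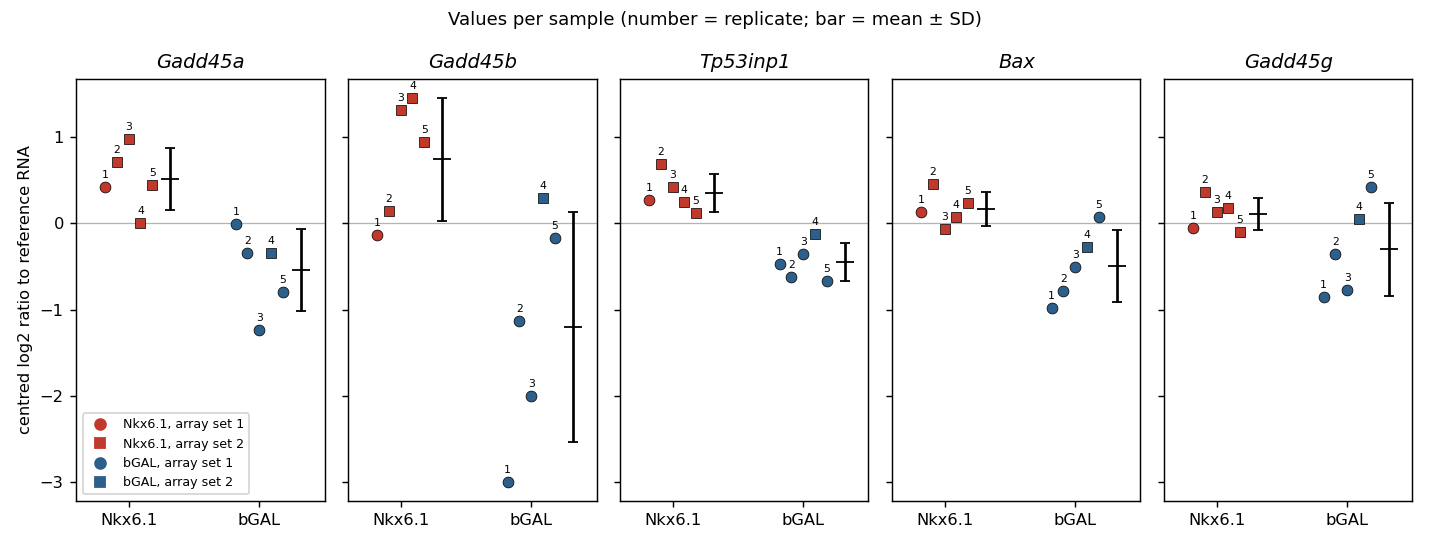
Centred log2 ratio (vertical axis) of the 4 genes and Gadd45g in each sample, with Nkx6.1 samples in red and bGAL samples in blue, circles for array set 1, squares for array set 2 and a bar for the mean ± SD of 5 samples. The groups are apart for Gadd45a and Tp53inp1 and overlap for Gadd45b, Bax and Gadd45g, and Gadd45b has the widest bGAL scatter, from -2.99 to 0.29.

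Tp53inp1 had the narrowest spread of the 4 genes among bGAL samples. It stood at 0.27, 0.69, 0.42, 0.25 and 0.12 in Nkx6.1 replicates 1 to 5, against -0.47, -0.62, -0.35, -0.12 and -0.67 in bGAL replicates 1 to 5. All Nkx6.1 samples were above all bGAL samples, with a gap of 0.25 between Nkx6.1 replicate 5 and bGAL replicate 4, both of array set 2. The means were 0.35 ± 0.22 with Nkx6.1 and -0.45 ± 0.22 with bGAL (SD, n = 5 each), a difference of 0.80 ± 0.18 (limma estimate ± SE), or 1.74-fold. In the samples of array set 1 alone the difference was 0.80, and in those of array set 2 alone 0.49.

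Bax had the smallest difference. It stood at 0.13, 0.46, -0.069, 0.074 and 0.23 in Nkx6.1 replicates 1 to 5, against -0.98, -0.78, -0.51, -0.27 and 0.069 in bGAL replicates 1 to 5. A single pair of samples crossed, bGAL replicate 5 above Nkx6.1 replicate 3. The means were 0.17 ± 0.20 with Nkx6.1 and -0.50 ± 0.41 with bGAL (SD, n = 5 each), a difference of 0.66 ± 0.22 (limma estimate ± SE), or 1.58-fold, with 0.68 in array set 1 alone and 0.45 in array set 2 alone.

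Of the 9974 genes tested over the whole table, 0.150% passed an adjusted p of 0.05 (limma, Benjamini-Hochberg over all genes), 11 higher (0.110%) and 4 lower (0.0401%) with Nkx6.1, and 0 of the 4 genes were among them (9.65% of all genes had an unadjusted p under 0.05). With limma array weights 4.31% of all genes passed, and Gadd45b, Tp53inp1 and Bax, 3 of the 4, were among them. In 2 of the 4 genes, Gadd45a and Tp53inp1, every Nkx6.1 sample was above every bGAL sample, as in 1.75% of all genes by a gap over 0.001. The reverse held for 1.85%, together 3.61%. By size of the difference, 1.18% of genes tested had a higher value than Gadd45b, 4.14% than Gadd45a, 7.05% than Tp53inp1 and 9.68% than Bax. The calls of the 4 genes, their lack of overlap and these ranks describe genes that were chosen for this contrast, and nothing is read from them. The same holds for the direction of the 4 genes under other processing.

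**Figure D2:**
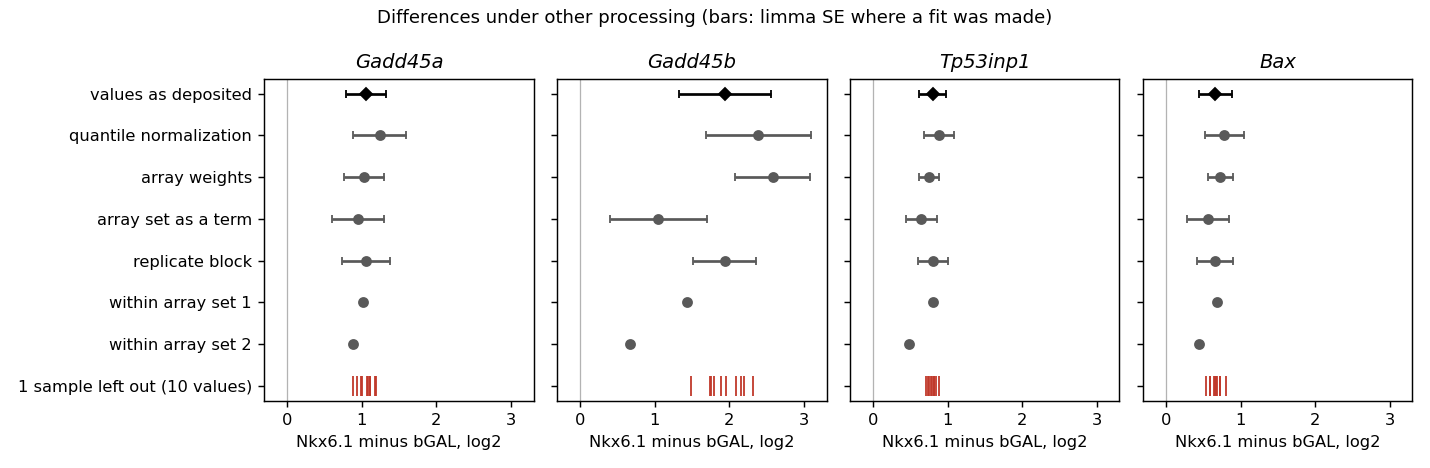
Difference between Nkx6.1 and bGAL (horizontal axis, log2 units) of the 4 genes under each processing, with SE bars where a limma fit was made, and 10 ticks for the values with 1 sample left out. Gadd45b spreads most, from 0.67 within array set 2 to 2.58 with array weights, while Tp53inp1 stays between 0.49 and 0.88.

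The 4 genes did not share 1 order of samples. Nkx6.1 replicate 2 was the highest of all 10 samples for Tp53inp1 and Bax, Nkx6.1 replicate 3 for Gadd45a and Nkx6.1 replicate 4 for Gadd45b. The lowest was bGAL replicate 1 for Gadd45b and Bax, bGAL replicate 3 for Gadd45a and bGAL replicate 5 for Tp53inp1. bGAL replicate 1 also was the highest bGAL sample for Gadd45a. Without Nkx6.1 replicate 2, the sample with the widest spread, the differences were 1.01 for Gadd45a, 2.09 for Gadd45b, 0.71 for Tp53inp1 and 0.59 for Bax.

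The genes whose 10 values most resembled each of the 4 were looked up among 5700 genes with 10 values and no repeated value, by Pearson's r over the 10 samples. The r includes the difference between the groups, so it is also given within groups, after each group's mean was taken off. Gadd45a was most like Mad2l1, a spindle checkpoint gene (r = 0.929, and 0.86 within groups), Gmnn, which encodes the replication licensing inhibitor geminin (0.917 and 0.75), and Ndufs5, a respiratory complex I subunit (0.908 and 0.72). Mad2l1 was among the genes that passed over all genes (difference 1.23 ± 0.18, SE, limma adjusted p = 0.0384), and Gmnn was not (1.45, adjusted p = 0.236). Mad2l1 no longer passed when any single sample other than Nkx6.1 replicate 2 was left out (limma adjusted p of 0.0653 to 0.153).

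Gadd45b was most like Cdc6, a replication licensing factor (r = 0.951, and 0.90 within groups), Pelo, a ribosome rescue factor (0.95 and 0.91), and Dnase2, a lysosomal DNase (0.942 and 0.96). Cdc6 stood at 0.061, -0.42, 1.67, 1.34 and 1.47 in Nkx6.1 replicates 1 to 5, against -2.41, -1.63, -1.40, -0.01 and 0.01 in bGAL replicates 1 to 5. As for Gadd45b, bGAL replicates 4 and 5 were the highest of their group and Nkx6.1 replicates 1 and 2 the lowest of theirs.

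Tp53inp1 was most like Ube2t, a ubiquitin-conjugating enzyme of the Fanconi anaemia pathway (r = 0.942, and 0.68 within groups), Tspo, the mitochondrial translocator protein (0.941 and 0.74), and Rnf4, a SUMO-targeted ubiquitin ligase (0.933 and 0.63). Their differences were 1.12, 1.60 and 0.78, and none passed (limma adjusted p of 0.0973, 0.131 and 0.153). Tspo passed with quantile normalisation (adjusted p = 0.0335) and without Nkx6.1 replicate 2 (0.0324), as did Ube2t without that sample (0.0436). Bax was most like Tmem120a, a membrane protein gene (r = 0.97, and 0.95 within groups), Pebp1, an inhibitor of Raf kinase (0.963 and 0.93), and Pold2, a subunit of DNA polymerase delta (0.932 and 0.85). Their differences were 0.88, 0.61 and 1.29, and none passed (limma adjusted p of 0.244, 0.489 and 0.416). With array weights 8 of the 12 genes of this kind passed in addition to Mad2l1: Gmnn, Cdc6, Ube2t, Tspo, Rnf4, Tmem120a, Pebp1 and Pold2, where 4.31% of all genes passed. Nothing is read from this count, since these genes were picked for likeness to genes that were chosen for the group difference. These r values are over 10 samples that share the array set and the group, and they carry no test.

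**Figure D3:**
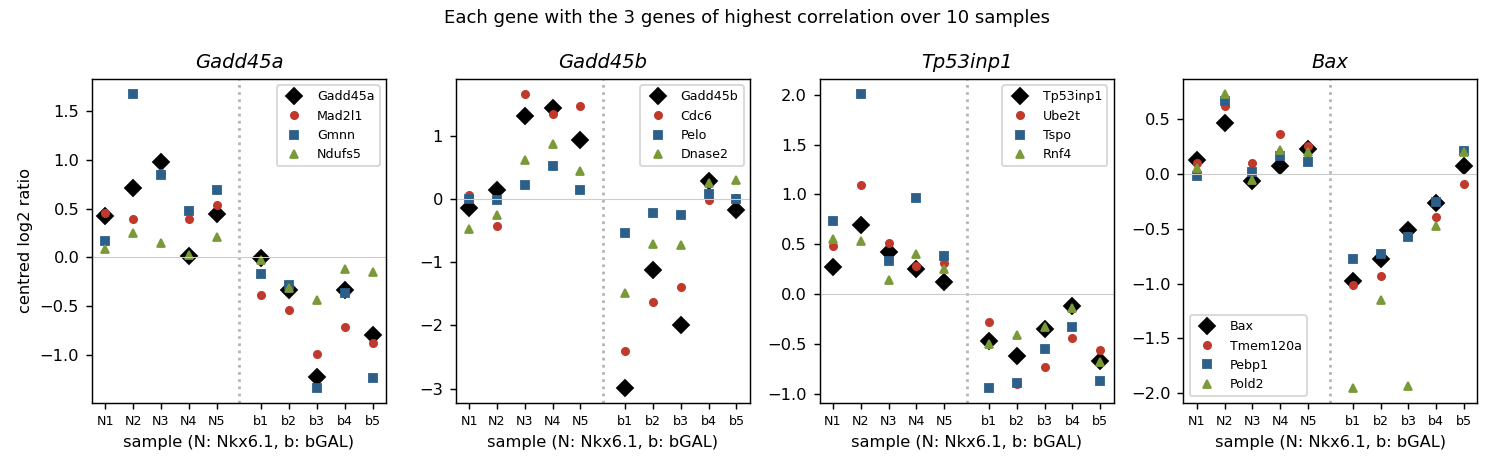
Centred log2 ratio (vertical axis) in each sample (horizontal axis, Nkx6.1 replicates left of bGAL replicates) of each of the 4 genes, as black diamonds, and the 3 genes with the highest Pearson's r over the 10 samples. The highest r for each gene is 0.929 for Gadd45a, 0.951 for Gadd45b, 0.942 for Tp53inp1 and 0.97 for Bax.

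Around these 4 genes, 9 lists of pathway genes were examined in the whole-table fit, without the 4 genes themselves. Of 110 list members tested, 0 passed in either direction with limma at an adjusted p of 0.05, and 9 had an unadjusted p under 0.05, beside 9.65% of all genes. With array weights 4 of the 110 passed, beside 4.31% of all genes. Neither share of the 110 stood above that of all genes. The 4 genes left out were chosen as higher and remain in the share of all genes, so leaving them out lowers both list shares. The median difference of the 110 was -0.062, beside -0.052 for all genes tested, and 46 of 110 were higher, beside 45.5% of all genes.

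Other p53 target genes had mixed signs. Of 28 listed, 14 were tested, and 8 of those had a probe with a repeated value. Of the 14 tested, 8 were higher and 6 lower, with a median difference of 0.12, and of -0.051 without bGAL replicate 4. Without probes with a repeated value the median was 0.20 over 6 genes. The differences of the 14 ran from -0.87 for Xpc to 1.59 for Sfn, which had an SE of 1.20. The p53-induced kinase gene Plk2 differed by 1.45 ± 0.96 (SE) and stood at 2.19 in both Nkx6.1 replicate 1 and bGAL replicate 3, between -0.76 and 0.74 in the other Nkx6.1 samples and between -3.03 and -0.039 in the other bGAL samples. Sesn1, a stress-induced regulator of growth signalling, differed by -0.84 and the repair gene Xpc by -0.87, where Sesn1 held a repeated value of 0.42 in all 5 samples of array set 1 and Xpc stood at -3.24 in Nkx6.1 replicate 2. Adjusted p for these 3 was 0.58, 0.544 and 0.582 (limma). Ccng1, which encodes the p53-induced cyclin G1, differed by 0.14 ± 0.19, and the death receptor gene Fas by 0.12 ± 0.60. Fas held the repeated value 1.40 in Nkx6.1 replicate 1 and bGAL replicates 1 and 3. Cdkn1a, which encodes the cell cycle inhibitor p21, had a value in 4 samples: 0.15, -0.57 and -1.02 in Nkx6.1 replicates 3 to 5 and -1.12 in bGAL replicate 4, too few to be tested. Mdm2 was not analysed here.

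Of the genes that control p53 or signal DNA damage, 8 of 12 were lower, with a median difference of -0.34, and none passed the threshold. The median was -0.052 without Nkx6.1 replicate 2 and -0.099 with the array set as a term. The checkpoint kinase gene Chek2 differed by -1.12 ± 0.53 (SE, limma adjusted p = 0.532), but its value was the repeated 0.59 in all 5 samples of array set 1 and between -1.73 and -0.59 in all 5 of array set 2. Within sets its difference was 0 and 0.018. The acetyltransferase gene Kat5 differed by -0.45 and Prkdc, the catalytic subunit of DNA-dependent protein kinase, by -0.40, and by -0.26 and -0.19 without Nkx6.1 replicate 2.

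The list of GADD45 partners and stress kinases had 16 members tested, 8 of them higher, with a median difference of 0.007 and 5 unadjusted p under 0.05, beside 9.65% of all genes. Its 12 kinases were mostly lower, with 4 higher, 8 lower and a median of -0.20, while all 4 other members (Gadd45g, Gadd45gip1, Pcna and Tdg) were higher. None passed, and this split of the list was made after its values were seen. Map2k6, a kinase that activates p38, stood at -0.70, -0.83, -0.19, -0.45 and -0.088 in Nkx6.1 replicates 1 to 5, against 0.13, 0.59, 0.088, 1.25 and 0.30 in bGAL replicates 1 to 5. All Nkx6.1 samples were below all bGAL samples, and the difference was -0.92 ± 0.26 (SE, limma adjusted p = 0.336). Map3k4, the kinase that GADD45 proteins bind, differed by -0.70 ± 0.27 (adjusted p = 0.489), and Mapk14, which encodes p38 alpha, by -0.47 ± 0.20 (adjusted p = 0.508).

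Mapk9, which encodes JNK2, differed by -0.91 ± 0.28 (SE, limma adjusted p = 0.392), with a repeated value in 1 of its 2 probes. Mapk13, which encodes p38 delta, differed by 1.11 ± 0.33 (adjusted p = 0.372) and 1.22 with array weights (adjusted p = 0.0333). It held the repeated value -0.20 in all 5 samples of array set 1, so the difference there was 0, and it was 1.09 within array set 2. Pcna, the clamp that GADD45 proteins bind, differed by 0.83 ± 0.50 and stood lowest in bGAL replicates 4 and 5, at -1.80 and -1.91. Gadd45gip1, a GADD45-interacting mitochondrial protein, differed by 0.40 ± 0.41, and by 0.034 without Nkx6.1 replicate 2.

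In the BCL-2 family, Bik stood closest to the threshold. Bik encodes a BH3-only protein that promotes apoptosis, and it stood at 0.74, 1.09, 0.33, 0.26 and 0.55 in Nkx6.1 replicates 1 to 5, against -1.65, -0.60, -1.36, -0.77 and -0.26 in bGAL replicates 1 to 5. The groups did not overlap. The difference was 1.52 ± 0.29 (SE, limma adjusted p = 0.107), or 2.87-fold, with 1.70 in array set 1 alone and 1.33 in array set 2 alone. It passed with array weights (1.42, adjusted p = 0.0188), and its adjusted p over the other alternatives ran from 0.0651 to 0.666.

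The rest of the pro-apoptotic list was mixed, with 4 of all 10 higher and a median difference of -0.097. The sign of this median turned, to 0.18 with array weights, 0.51 without probes with a repeated value and 0.19 without Nkx6.1 replicate 5. Bok, a relative of Bax, differed by 0.41 ± 0.17 (SE, limma adjusted p = 0.498), with a repeated value in 1 of its 2 probes. Bak1, the other pore-forming effector beside Bax, differed by -0.18 ± 0.28, with a repeated value in 1 of its 2 probes. The mitophagy receptor gene Bnip3 differed by -0.54 ± 0.33. Pmaip1, which encodes Noxa, differed by -0.18 ± 0.70 from mostly repeated values. Of the anti-apoptotic list only 3 were tested. Bag1 differed by 0.81, Bcl2l2 by 0.38 and Bcl2a1 by -0.75, and none passed (limma adjusted p of 0.544, 0.59 and 0.544). Bcl2l2 had a repeated value in 2 of its 2 probes. Bcl2, Bcl2l1, Mcl1 and Bbc3 were not analysed here.

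Caspases and other execution genes had a median difference of -0.018 over 17 members, with 8 higher, and the median was 0.20 without Nkx6.1 replicate 2 and 0.18 with array weights. The executioner caspase gene Casp6 differed by 0.45 ± 0.19 (SE, limma adjusted p = 0.509, and 0.0401 with array weights), Casp2 by -1.03 ± 0.51 and Casp4, an inflammatory caspase, by -0.72 ± 0.43. Apaf1, the scaffold of the apoptosome, differed by 0.37 ± 0.26, and Casp9, the caspase it activates, by 0.094 ± 0.51. Apaf1 had a repeated value in 1 of its 2 probes. Casp9 held the repeated value -0.45 in Nkx6.1 replicates 1 and 2 and bGAL replicates 1 to 3. Single samples moved several of these differences. Casp2 differed by -0.66 without bGAL replicate 2 and Casp4 by -0.29 without bGAL replicate 3. Without Nkx6.1 replicate 3, Apaf1 differed by 0.15 and Casp9 by -0.086.

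In the NF-kB list 9 of 11 genes were lower, with a median difference of -0.15. Nfkbia, the inhibitor that NF-kB induces, differed by -0.61 ± 0.30 and the subunit gene Rela by -0.59 ± 0.29 (SE, both limma adjusted p = 0.544). The Nfkbia probe held the repeated value 0 in Nkx6.1 replicate 1 and bGAL replicates 1 to 3, and its difference was -0.036 in array set 1 alone and -0.71 in array set 2 alone. Traf6, a signalling adaptor, differed by -6.73 ± 3.44 on values from -6.11 to 9.17 in Nkx6.1 samples and from -3.83 to 11.17 in bGAL samples, with -12.98 in array set 1 alone and 2.85 in array set 2 alone.

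Of the genes of the integrated stress and ER stress responses, 11 of 16 were lower, with a median difference of -0.14. The exception among those named was Atf3, a stress-induced transcription factor gene, with 0.67 ± 0.23 (SE, limma adjusted p = 0.458). Its relative in that response, Ddit3 (CHOP), differed by -0.84 ± 0.76, and by -0.053 without Nkx6.1 replicate 2. The sensor kinase gene Eif2ak3 (PERK) differed by -0.67 and Xbp1 by -0.38, and without Nkx6.1 replicate 2 by -0.31 and -0.23. Among 11 autophagy genes, some of them of the LC3 family that Tp53inp1 binds, 5 were higher, and the median difference was -0.25. That median did not keep its sign: with array weights it was 0.021, without probes with a repeated value 0.11, and without Nkx6.1 replicate 2 it was 0.0053. Wipi1 differed by 0.47, Atg16l1 by -0.61, Becn1 by -0.42 and Tp53inp2, the relative of Tp53inp1, by -0.25 ± 0.29, none past the threshold (limma adjusted p of 0.602 to 0.708). Atg16l1 differed by -0.15 and Becn1 by -0.13 without Nkx6.1 replicate 2. Wipi1 differed by 0.22 without bGAL replicate 1, and Tp53inp2 by -0.068 without Nkx6.1 replicate 4. The probes of Atg16l1 and Tp53inp2 held repeated values. For Tp53inp2 the repeated 0 was in Nkx6.1 replicates 1 and 2 and in all bGAL samples but replicate 4.

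**Figure D4:**
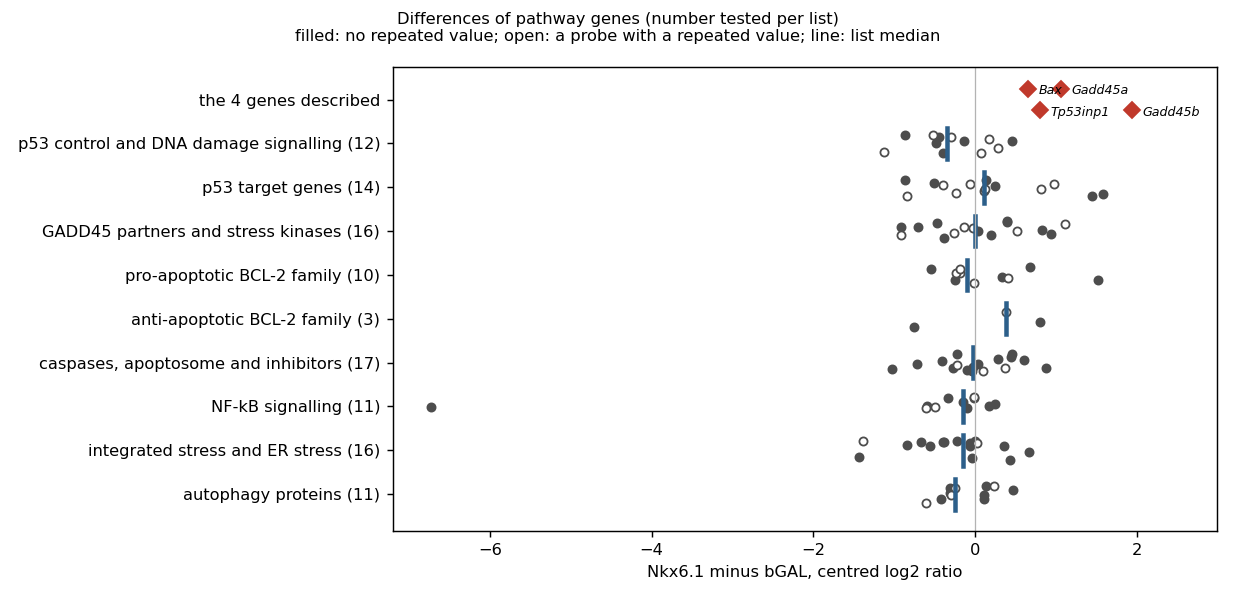
Difference between Nkx6.1 and bGAL (horizontal axis, centred log2 units) for the 4 genes, as red diamonds, and for the tested genes of 9 pathway lists, as circles, with the number tested in parentheses and a blue line at each list's median. Filled circles have no probe with a repeated value and open circles have at least 1. The list medians lie between -0.34 and 0.38.

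Of 8 lists of cell type markers, 2 had sample means that did not overlap between the groups. The lists were chosen with earlier results of these data known, so this separation and the counts below are a description. The mean of 11 markers of dividing cells lay between 0.46 and 1.04 in Nkx6.1 samples and between -1.02 and -0.57 in bGAL samples. Of the 11, 10 were higher and 1 lower. Mad2l1, named above as most like Gadd45a, is 1 of these markers. Of the 11, 5 passed over all genes, all higher, beside 0.110% of all genes. In a count added after seeing the data, 2 of these markers passed with the array set as a term, 0 with the replicate block and 1 to 5 with a single sample left out, with 1 left without any one of Nkx6.1 replicates 3, 4 and 5 or bGAL replicates 2, 3 and 5, 2 without bGAL replicate 1 and 3 without Nkx6.1 replicate 1. The mean of 9 macrophage and leukocyte markers lay between -0.77 and -0.37 in Nkx6.1 samples and between 0.22 and 0.97 in bGAL samples, with 9 of 9 lower and none past the threshold. In these bulk samples fewer cells of a type and less RNA per cell cannot be told apart. Both lists separate the same groups in which the 4 genes differ, and their part in the differences was not tested.

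Acinar markers were high in 2 samples, with a mean of 1.44 in Nkx6.1 replicate 1 and 1.43 in Nkx6.1 replicate 2, while Nkx6.1 replicates 3 to 5 ranged over -0.30 to 0.22 and bGAL samples over -0.23 to 0.34. Duct and endothelial marker means overlapped between the groups, at -0.24 to 0.44 and -0.29 to 0.14 in Nkx6.1 samples and -0.67 to 0.12 and -0.54 to 0.14 in bGAL samples. Stellate and fibroblast markers lay between 0.016 and 0.32 in Nkx6.1 samples and between -0.24 and 2.85 in bGAL samples, and other islet endocrine markers between -0.61 and 1.75 in Nkx6.1 samples and between -0.26 and 0.55 in bGAL samples.

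**Figure D5:**
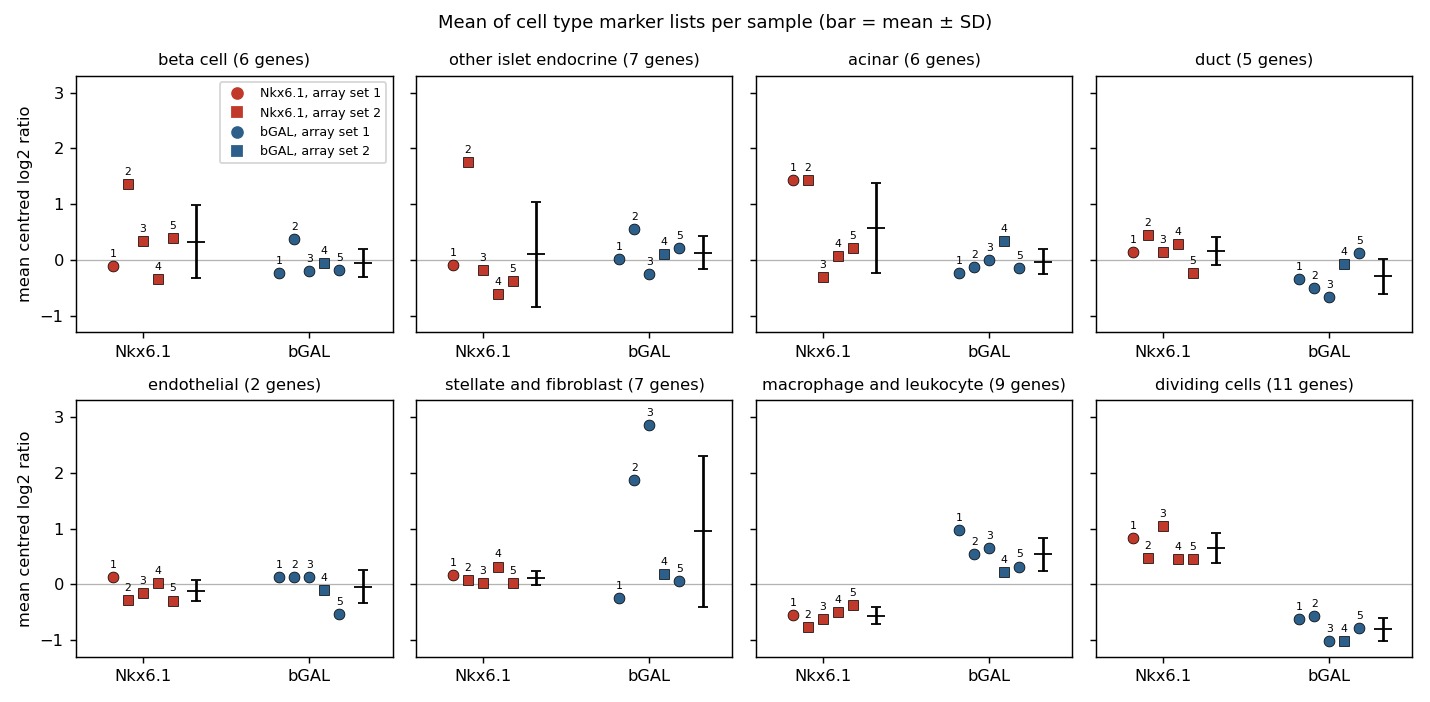
Mean centred log2 ratio per sample (vertical axis) of 8 lists of cell type markers, with Nkx6.1 samples in red, bGAL samples in blue, circles for array set 1, squares for array set 2 and a bar for the mean ± SD of 5 samples. The groups are apart for dividing cells (0.46 to 1.04 against -1.02 to -0.57) and for macrophages and leukocytes (-0.77 to -0.37 against 0.22 to 0.97), and overlap for the other 6 lists.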

How the data were processed

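The deposited values, used as the authors left them, are log2 ratios of Cy5-labelled islet RNA to a Cy3-labelled rat reference RNA, with no dye swap per the labels. For background correction, dye normalisation and filters, the methods were not given in the sources used here. All 17744 probes with 10 values were centred, with medians within 9.5e-07 of 0. The base of 2 was inferred from 103 values 13.29 above a probe's repeated value, the base 2 logarithm of 10000. Pearson's r between arrays was -0.11 to 0.36. Probes with the same value (4 decimals) in 3 or more samples, 40.6% of those with 10 values, were treated as floored.

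Of the 26962 probes, 15807 had 1 symbol, 0 several and 11155 none, and 3713 symbols were updated through the GRCr8 gene table. Probes of a gene were averaged, and genes with at least 3 values per group were fitted as Nkx6.1 minus bGAL with limma 3.58.1 (lmFit, eBayes, two-sided) in R 4.3.3, with Benjamini-Hochberg adjustment over all genes. Arrays with over 20% of probes without a value formed array set 1. Tables were made in Python 3.11.15 with pandas 2.3.3 and numpy 2.4.6, and plots with matplotlib 3.10.9. The 4 genes, the lists and the named genes were chosen with earlier results of these data known. Named were the 4 genes, 22 genes fixed by name, the 3 smallest p and all passing genes of each of 9 lists, and the 3 genes most like each of the 4. The fit was tested on simulated data. Alternatives were quantile normalisation, array weights, array set as a term or within sets, the replicate block, other filters on missing, repeated or extreme values, the most variable probe, and leaving out each sample. Deviations of same-numbered samples correlated at 0.17 and 0.18 for replicates 1 and 4, whose samples shared an array set. The correlations were -0.1 to -0.01 for replicates 2, 3 and 5, whose samples did not. Array set and pairing are mixed in this check, so whether replicate numbers pair the samples could not be told.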

Additional observations from a re-analysis of the deposited data

Results flagged for a closer look

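None of the 4 genes had a sample that stood apart from its group by the gap between neighbouring values (Dixon's ratio at 95%). Among the genes named beside them, some groups held repeated values, where the chance rate of about 1 in 20 does not apply. Of their 104 groups of 5 samples, 23 had a sample that stood apart, and nothing is read from this count. In 10 of these it was Nkx6.1 replicate 2, which stood at -0.94 for Kat5 (others -0.11 to 0.011), -3.24 for Xpc (others -0.39 to 0.21), 9.17 for Traf6 (others -6.11 to -2.84), -1.97 for Eif2ak3 (others -0.43 to 0.10) and -0.84 for Xbp1 (others -0.12 to 0.041). The same sample stood at -2.47 for Atg16l1, 1.73 for Gadd45gip1, -3.97 for Ddit3, 1.09 for Ube2t and 0.66 for Pebp1. In 6 it was bGAL replicate 4, the only bGAL sample of array set 2, which stood at -1.3 for Chek2, -0.88 for Sesn1, 0.20 for Mapk13, -0.94 for Tp53inp2, -2.79 for Pmaip1 and 0.041 for Apaf1. For each of these 6 genes the other 4 bGAL samples shared a single value: 0.59 for Chek2, 0.42 for Sesn1, -0.20 for Mapk13 and 0 for the rest. With 4 equal values any other value gives a Dixon's ratio of 1.

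The other samples were Nkx6.1 replicate 1 at -1.83 for Bcl2a1, Nkx6.1 replicate 5 at -2.74 for Pmaip1, bGAL replicate 2 at 1.07 for Bcl2a1 and -0.69 for Atg16l1, bGAL replicate 3 at 2.22 for Casp4, and bGAL replicate 5 at -0.17 for Prkdc and 0.14 for Nfkbia.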

How the results depend on the processing

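The differences of the 4 genes kept their sign under every alternative run, a direction that the choice of these genes fixes. They moved by more than the spread between replicates in 2 cases, to 0.67 for Gadd45b and 0.49 for Tp53inp1, both within array set 2, where bGAL has 1 sample. With 1 sample left out they ran from 0.89 to 1.19 for Gadd45a, from 1.49 to 2.31 for Gadd45b, from 0.71 to 0.88 for Tp53inp1 and from 0.54 to 0.80 for Bax. Over the whole table, against 11 genes higher and 4 lower, 23 were higher with quantile normalisation, 206 higher and 224 lower with array weights, and 3 higher and 0 lower with the array set as a term (506 unadjusted p under 0.05). With the replicate block 0 were higher and 0 lower (811 unadjusted), and whether the numbers pair the samples could not be told. With 1 sample left out, 2 to 29 were higher and 0 to 11 lower: 29 higher and 7 lower without Nkx6.1 replicate 2, 7 and 11 without bGAL replicate 4, 4 and 2 without bGAL replicate 1 or 5, 3 and 0 without bGAL replicate 3, 2 and 1 without Nkx6.1 replicate 4, 2 and 0 without Nkx6.1 replicate 3 or 5 or bGAL replicate 2, and 9 and 6 without Nkx6.1 replicate 1. The pathway lists kept a count of 0 under all other alternatives, and array weights gave 1 each for stress kinases (Mapk13), pro-apoptotic BCL-2 genes (Bik), caspases (Casp6) and NF-kB genes (Traf6). The list medians were less stable, and with array weights 5 of 9 turned sign (p53 targets -0.0085, GADD45 partners and stress kinases -0.081, pro-apoptotic 0.18, caspases 0.18, autophagy 0.021). The sign turned with the array set as a term for Chek2 (0.0092), Tp53inp2 (0.19), Pmaip1 (0.93) and Casp9 (-0.28), and with array weights for Bak1 (0.10) and Fas (-0.34). With 1 sample left out it turned for Bak1 (-0.28 to 0.018), Pmaip1 (-0.74 to 0.32), Fas (-0.15 to 0.43) and Casp9 (-0.086 to 0.51). Mad2l1 no longer passed with the array set as a term (adjusted p = 0.313), with the replicate block (0.488) or without any one sample but Nkx6.1 replicate 2. With array weights 12 of 52 named genes passed that otherwise had not in the fit reported, where 4.31% of all genes passed. Many named genes were picked for a small p or for likeness to the 4 genes, so nothing is read from this count. The cause of the changes between settings was not tested. The median difference of the whole table lay between -0.071 and -0.0079 under these settings. Quantile normalisation, the setting that rescaled the arrays, moved it from -0.052 to -0.0089. Signal over background could not be read from ratios.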
